A study of Mus musculus with 6 samples.

Results

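Transient receptor potential (TRP) channels are cation channels of the cell membrane, and 7 of them that are linked to hypertrophy signalling in the heart were followed here: Trpc1, Trpc4, Trpc5, Trpc6, Trpm4, Trpm7 and Trpv2. Their rows were taken as the non-control spots whose gene name in the array files was that of a listed channel, which gave 8 probes among 55681 and 7 genes among 35440 gene names. Trpc4 had 2 probes and the other channels 1 each. The RNA came from the cardiomyocyte fraction of adult mouse hearts, isolated by retrograde perfusion 6 weeks after transverse aortic constriction (TAC), an operation that narrows the aorta and loads the left ventricle. The groups were H19 knockout mice after TAC (3 arrays) and their wild-type littermates after TAC (3 arrays), so both genotypes had been operated on and hearts without TAC were not analysed here. H19 is a long non-coding RNA of an imprinted locus. The part of H19 that the knockout allele lacks and the mouse strain are not given in the sources used here, nor is it said whether hearts were pooled for an array. The p-values therefore reflect only how far these arrays scatter, which may in part be technical.

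In heart muscle, receptors coupled to the G protein Gq, such as those for angiotensin, endothelin and noradrenaline, activate phospholipase C. The diacylglycerol this enzyme releases, store depletion and stretch are described as openers of the canonical (TRPC) channels, and the calcium that enters can activate calcineurin, which sends the NFAT transcription factors to the nucleus. TRPC1, TRPC4 and TRPC5 can assemble with each other, and TRPC6 is opened by diacylglycerol. TRPM4 is a calcium-activated channel for monovalent cations, TRPM7 joins a magnesium- and calcium-permeable channel to a protein kinase, and TRPV2 is a calcium-permeable channel with roles in stretched muscle and in macrophages.

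The probe sequences are shown because each channel's value rests on a single oligonucleotide of 60 bases, except for Trpc4. Each line gives bases 5′ to 3′ as the array files list them. For Trpc1 the first 56 bases are shown, and the capitals mark a TAA that is the first stop codon in the frame read from base 3. Trpc4 probe 1 and Trpm4 are shown whole, and of Trpc4 probe 2, Trpc6 and Trpv2 the first 30 bases are given.
Trpc1: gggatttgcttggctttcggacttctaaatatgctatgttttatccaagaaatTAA
Trpc4 probe 1: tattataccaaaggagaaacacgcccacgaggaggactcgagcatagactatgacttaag
Trpc4 probe 2: ggagtgtttaccatacctatacatattttc
Trpc6: agagtcctaatatcaactttttgggtgatt
Trpm4: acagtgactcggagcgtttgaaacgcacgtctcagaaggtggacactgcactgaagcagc
Trpv2: agggaattttgccagccacacccgaggcta

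In the mm9 build given in the file headers, the probes lie at chr9:95607155-95607214 on the minus strand (Trpc1), chr3:54121970-54122029 (Trpc4 probe 1) and chr3:54122087-54122146 (Trpc4 probe 2), both on the plus strand, and chrX:140816438-140816497 on the minus strand (Trpc5). Those of Trpc6 (chr9:8680682-8680741) and Trpv2 (chr11:62413739-62413798) are on the plus strand, and those of Trpm4 (chr7:52560215-52560354) and Trpm7 (chr2:126617373-126617432) on the minus strand. The Trpm4 probe spans 140 bases of genome for its 60 bases and so crosses 80 genomic bases that are not in the transcript. No exon annotation of this build was used, so the position of each probe within its transcript is not stated. GC content ran from 35% to 55% over the 8 probes (median 39.2%), against a median of 43.3% over all probes, and the longest run of bases that any pair of the 8 shared was 8 bases.

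The series as a whole set the frame for these channels. The arrays carried 59305 spots besides controls, of which 48.8% to 58.6% passed the scanner's test for being well above background; no spot was saturated, and 21888 genes could be tested. H19 passed it on no knockout array and on all 3 wild-type arrays (log2 difference -7.11, SE 0.31, adjusted p = 0.00185, limma). Of all genes tested, 8 had an adjusted p under 0.05 (0.0365%), and 1 to 4 passed when any 1 array was left out. The 10 cardiomyocyte markers checked (Myh6, Tnnt2, Ttn and others) were well above background on all 6 arrays. So were all 8 endothelial, 8 smooth muscle and pericyte, 9 fibroblast and 10 macrophage markers, so markers of other cell types were measured in this fraction too. In such bulk RNA, fewer cells of a type and less RNA per cell cannot be told apart.

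Most of the channels were detected in both genotypes, and no difference that could be tested was larger than the spread of the arrays allowed for. Trpc1, Trpc4 (probe 1), Trpm4, Trpm7 and Trpv2 were well above background on all 6 arrays, Trpc6 on 4 and Trpc5 on none. Of the 6 channels that could be tested, 0 passed the threshold (limma, Benjamini-Hochberg adjustment over all genes, adjusted p from 0.730 to 0.9996), where 0.0365% of all genes did, and 0 had an unadjusted p under 0.05, where 7.92% of all genes did. The knockout arrays lay wholly beyond the wild-type arrays for 0 of the 6, against 10.5% of all genes tested. Trpm7 had a small positive log2 difference and the other 5 a negative one, in a table where 39.9% of all genes were positive. The median over the 6 was -0.19 and over all genes -0.05. That sign depended on the scaling of the arrays: with each array scaled to its median probe, 5 of the 6 channels were positive and the median of all genes moved to 0.37, which left the channels' median 0.14 below that of all genes in either scaling (-0.14). With quantile normalization 3 were positive and 3 negative, and the channels' median lay -0.02 from that of all genes.

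**Figure D1:**
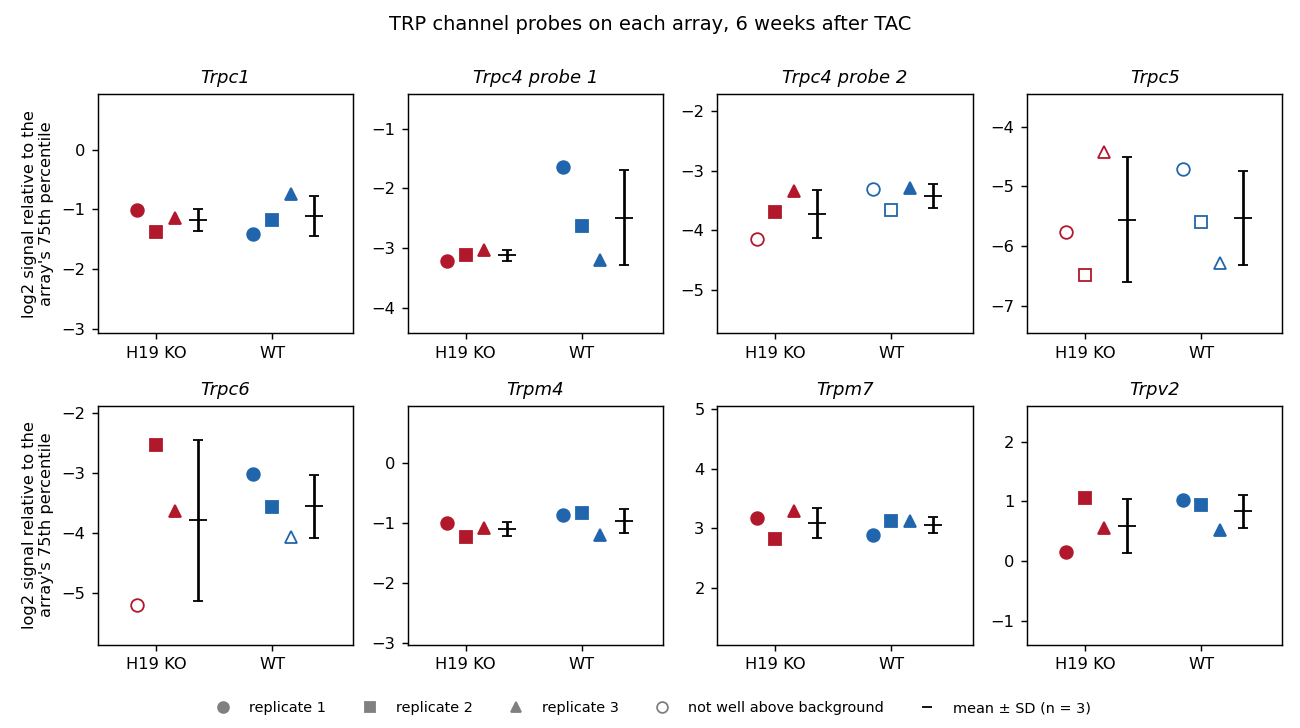
Log2 signal minus the 75th percentile of the array (y axis) for each of the 8 probes on the H19 knockout and wild-type (WT) arrays; each symbol is 1 array, open symbols were not well above background, and bars are mean ± SD (n = 3). All panels span the same number of log2 units, and the genotypes overlap for each tested channel (Trpc5 has open symbols throughout), with Trpc6 the most scattered of the tested channels (-5.20 to -2.54 in knockout, -4.08 to -3.02 in wild type).

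Trpc1 and Trpc4 belong to the group of canonical channels that assemble with TRPC5. The log2 signal of Trpc1 relative to the 75th percentile of its array was -1.02, -1.38 and -1.14 in knockout replicates 1 to 3, against -1.41, -1.18 and -0.74 in wild-type replicates 1 to 3. The lowest and the highest array were both wild type, and the knockout values lay between them. Its log2 difference was -0.07 (SE 0.21, adjusted p = 0.9996, limma, n = 3 each), with a 95% interval of 0.671- to 1.35-fold. On slide 1, which held replicate 1 of each genotype, it was 0.39, and on slide 2, which held replicates 2 and 3, it was -0.30. The Trpc1 probe lies in the part of chromosome 9 between 75 and 110 Mb that holds 4 of the 8 genes passing the test. The probes of those 4 start from about base 77503500 to base 88736700, and that of Trpc1 at base 95607155. With slide as a block, 0 of the 316 genes tested between 75 and 110 Mb passed, and 1 gene in all. The genotypes did not overlap for 21.2% of those 316 genes, against 10.5% of all genes, and for Trpc1 they did overlap. The 316 include the 4 genes called in these same data, so their share is a description only.

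Trpc4 had the largest difference of the tested channels over the 6 arrays in the 75th percentile scaling, and its wild-type arrays were spread wider than its knockout arrays. That rank did not hold with arrays scaled to their median probe, where Trpm7 was at 0.47 and Trpc4 at -0.21, nor without knockout replicate 2 (Trpc6 at -0.86 and Trpc4 at -0.63) or wild-type replicate 1 (Trpc1 at -0.22 and Trpc4 at -0.20). Probe 1 read -3.21, -3.11 and -3.03 in knockout, against -1.63, -2.64 and -3.19 in wild type, in order of replicate. The knockout arrays were close together (SD 0.09), while wild-type replicate 1 was far above them and wild-type replicate 3 lay among them (SD 0.79). The log2 difference was -0.63 (SE 0.37, adjusted p = 0.730, limma, n = 3 each), or 0.646-fold with a 95% interval of 0.350 to 1.19. The slide 1 pair differed by -1.58 and the slide 2 arrays by -0.16; leaving out wild-type replicate 1 gave -0.20. Probe 2, whose first base lies 117 bases downstream of that of probe 1, was well above background on 2 knockout arrays and 1 wild-type array. It read -4.15, -3.69 and -3.34 in knockout and -3.31, -3.65 and -3.29 in wild type, a log2 difference of -0.31 (SE 0.24, adjusted p = 0.819 in the limma fit over all 29990 probes, of which 0.0467% passed). The high reading of wild-type replicate 1 on probe 1 was not repeated on probe 2, where that array was not well above background.

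Trpc5, the third channel of this group, did not rise well above background on a single array of the 6. Its background-subtracted intensity ran from 10.3 to 34.4 on the knockout arrays and from 9.62 to 24.3 on the wild-type arrays, while the dimmest probe counted as well above background read between 44.2 and 69.5, depending on the array. By the scanner's weaker criterion, a signal that is positive and significant, it was detected on 1 knockout and 2 wild-type arrays. No difference between the genotypes is given, because neither genotype had a measured level.

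Trpc6, the diacylglycerol-gated channel whose gene is itself described as an NFAT target, varied most from array to array. It read -5.20, -2.54 and -3.64 in knockout, against -3.02, -3.57 and -4.08 in wild type. The highest and the lowest of the 6 were both knockout arrays, replicates 2 and 1, and it was not well above background in knockout replicate 1 or wild-type replicate 3. The log2 difference was -0.24 (SE 0.65, adjusted p = 0.9996, limma, n = 3 each), with a 95% interval as wide as 0.294- to 2.45-fold. The slides gave -2.18 (slide 1) and 0.74 (slide 2), and leaving out knockout replicate 1 gave 0.47. With quantile normalization the sign turned as well (0.24).

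Trpm4 and Trpm7, the melastatin channels, were the steadiest of the set. Trpm4 read -0.99, -1.23 and -1.08 in knockout, against -0.86, -0.83 and -1.20 in wild type. Wild-type replicates 1 and 2 lay above every knockout array and wild-type replicate 3 lay within the knockout range. The log2 difference was -0.14 (SE 0.17, adjusted p = 0.9996, limma, n = 3 each), with a 95% interval of 0.691- to 1.20-fold. It was nearly equal on both slides (-0.13 and -0.14). Trpm4 lies on chromosome 7, as H19 does, with 97.2 Mb between their probes.

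Trpm7, the channel-kinase, read 3.18, 2.82 and 3.30 in knockout, against 2.90, 3.13 and 3.13 in wild type. The wild-type arrays lay inside the range of the knockout arrays. The log2 difference was 0.05 (SE 0.18, adjusted p = 0.9996, limma, n = 3 each), with a 95% interval of 0.768- to 1.39-fold. It was 0.29 on slide 1 and -0.07 on slide 2. Its difference was below 0 without wild-type replicate 1 (-0.030) or knockout replicate 3 (-0.052).

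Trpv2, the vanilloid channel, read 0.15, 1.05 and 0.56 in knockout, against 1.03, 0.94 and 0.52 in wild type. Knockout replicate 1 was the lowest and knockout replicate 2 the highest of the 6 arrays. The log2 difference was -0.24 (SE 0.27, adjusted p = 0.982, limma, n = 3 each), with a 95% interval of 0.547- to 1.31-fold. On slide 1 it was -0.88 and on slide 2 it was 0.08.

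**Figure D2:**
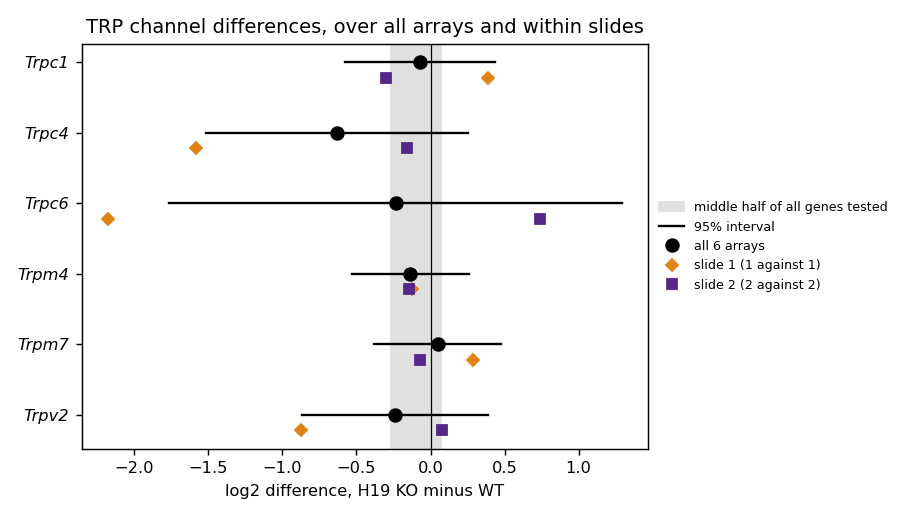
Log2 difference, H19 knockout minus wild type (x axis), of the 6 tested channels over all 6 arrays (circles, with 95% intervals) and within each slide (diamonds for slide 1, squares for slide 2); the grey band runs from the lower to the upper quartile of all genes tested. All 6 intervals include 0, and the 2 slides give opposite signs for Trpc1, Trpc6, Trpm7 and Trpv2.

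The channels did not share a single pattern over the arrays. In their readings, Trpc6 and Trpv2 ranked the 6 arrays in the same order, from knockout replicate 2 down through wild-type replicates 1 and 2, knockout replicate 3 and wild-type replicate 3 to knockout replicate 1. Their deviations from the mean of the 6 arrays were 1.14 and 0.35 in knockout replicate 2 and -1.53 and -0.56 in knockout replicate 1. For Trpc6 the signals of knockout replicate 1 and wild-type replicate 3 were not well above background, so its lowest place in that order and the size of -1.53 rest on a background reading. Trpm7 and Trpc1 were low in knockout replicate 2 (-0.26 and -0.24) and in wild-type replicate 1 (-0.18 and -0.26), the arrays in which Trpc6 and Trpv2 were high. Trpc4 was high in wild-type replicate 1 (1.17) and low in knockout replicate 2 (-0.31).

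Markers of vascular cells and fibroblasts moved along with Trpc6 and Trpv2 on the extreme arrays, as did other gene lists given below. The mean deviation of the 8 endothelial markers was 0.38 in knockout replicate 2 and 0.31 in wild-type replicate 1, against -0.44 in knockout replicate 1 and -0.38 in wild-type replicate 3. For the 8 smooth muscle and pericyte markers the values on these arrays were 0.46 and 0.31, against -0.33 and -0.65. For the 9 fibroblast markers they were 1.22 and 0.33, against -0.40 and -0.85. These 2 lists were lowest in wild-type replicate 3, and both channels in knockout replicate 1. In wild-type replicate 2 the fibroblast markers were at -0.37, with Trpc6 at 0.10 and Trpv2 at 0.23. Knockout replicates 1 and 2 also had the lowest and highest share of spots well above background (48.8% and 58.6%). Summed over each list, in units of the array's 75th percentile, endothelial markers ran from 127 to 208 in knockout and from 132 to 190.4 in wild type. The smooth muscle and pericyte sums ran from 108 to 152 in knockout and from 81.3 to 140.0 in wild type, and the fibroblast sums from 202 to 488 in knockout and from 140.1 to 293 in wild type. Every marker of these lists was measured on all 6 arrays, and none was at background. Macrophage markers, for a cell type that also carries Trpv2, deviated by 0.48 in knockout replicate 2 and -0.62 in knockout replicate 1, but by 0.60 in wild-type replicate 3, where Trpv2 was low (-0.19); their sums ran from 36.3 to 77.1 in knockout and from 56.6 to 78.6 in wild type. Between genotypes, 10 of 10 macrophage markers had a negative log2 difference (median -0.57) and 9 of 9 fibroblast markers a positive one (median 0.57), while endothelial markers split 5 positive to 3 negative (median 0.07), as did smooth muscle and pericyte markers (median 0.08); 0 of these markers passed the threshold. The slides disagreed for 3 of these lists. Fibroblast markers had a median of -0.74 within slide 1, where 8 of 9 were negative, and of 1.23 within slide 2, where all 9 were positive. The slide 1 and slide 2 medians were -0.76 and 0.47 for endothelial markers, -0.47 and 0.24 for smooth muscle and pericyte markers, and -0.67 and -0.49 for macrophage markers. With arrays scaled to their median probe, all 8 endothelial and all 8 smooth muscle and pericyte markers were positive and 6 of 10 macrophage markers were negative. Among 8 early response and heat shock genes, which can be induced while cells are isolated, the differences were all positive (median 0.71, 0 past the threshold), with mean deviations from 0.14 to 0.79 in knockout and from -0.64 to -0.01 in wild type. Their median was 1.20 within slide 1, where all 8 were positive, and 0.23 within slide 2, where 6 were positive and 2 negative. Cardiomyocyte markers varied less, from -0.19 in knockout replicate 2 to 0.07 in knockout replicate 1. In knockout replicate 2, wild-type replicate 1, knockout replicate 1 and wild-type replicate 3, Schwann cell markers deviated by 0.33, 0.32, -0.20 and -0.43. In this order of arrays, lymphocyte markers, not all well above background, deviated by 0.72, 0.28, -0.57 and -1.31. The further TRP channels tested deviated by 0.26, 0.37, -0.29 and -0.12, and cGMP and PKG genes by 0.15, 0.31, -0.37 and -0.44. Calcineurin and NFAT genes ran the other way (-0.03, -0.15, 0.18 and 0.05). The part of these lists in the channels' values was not tested.

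**Figure D3:**
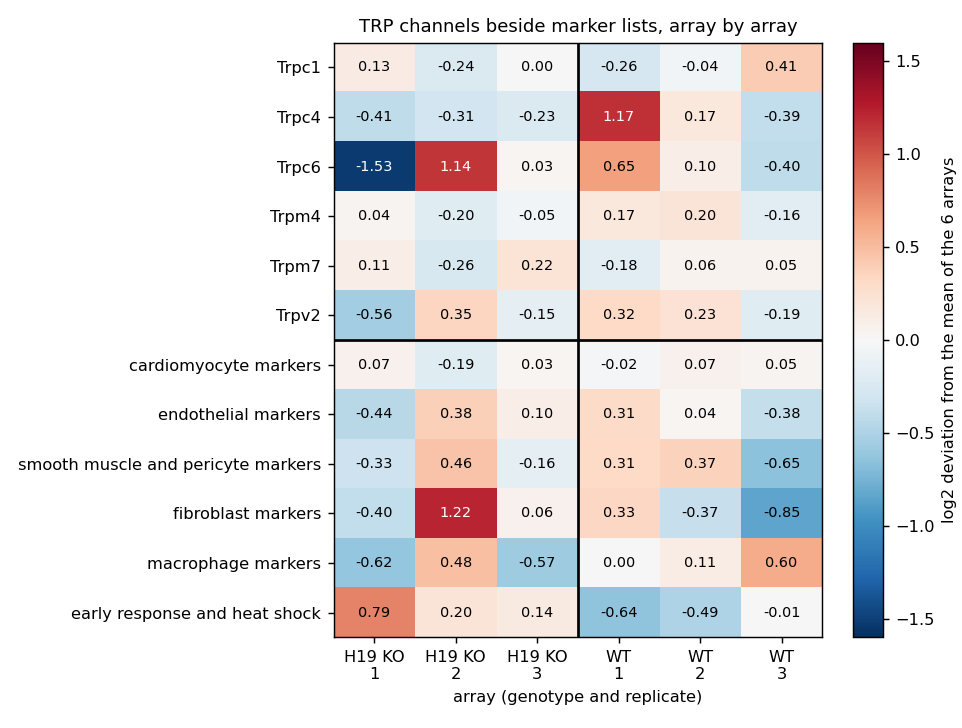
Log2 deviation from the mean of the 6 arrays (colour and printed value) of the 6 tested channels, above the line, and of the mean of 6 gene lists, below it; columns are arrays, knockout left and wild type right. Trpc6 and Trpv2 are highest in knockout replicate 2 (1.14 and 0.35) and lowest in knockout replicate 1 (-1.53 and -0.56), as the endothelial markers are (0.38 and -0.44); the Trpc6 value in knockout replicate 1 was not well above background.

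By likeness over the 6 arrays, measured as Pearson's r with each of 13948 other named genes, the genes closest to Trpc6 were B3galnt1 and Gsdmd (r = 0.996 and 0.995), and close to Trpv2 was Mis18a (0.994). Closest to Trpc1 were Memo1 (0.997) and Prxl2b (0.996), to Trpc4 Pramel48 (0.995) and Epb41l1 (0.994), to Trpm4 Swsap1 (0.983) and Zrsr1 (0.981), and to Trpm7 Ano8 and Ralgapa1 (both 0.996). The r of Trpc6 include knockout replicate 1 and wild-type replicate 3, where its signal was not well above background. Those of Trpc4 include wild-type replicate 1, which lay far from its other arrays (deviation 1.17). The arrays share their labelling, slides and scaling, and the highest of so many r over 6 arrays is a description only.

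Of the 21 further TRP channel genes, 11 could be tested and 0 passed over all genes, with 3 positive and 8 negative differences and a median of -0.16. The positive ones numbered 3 on slide 1 (median -0.81) and 6 on slide 2 (median 0.23). With quantile normalization 6 were positive and 5 negative (median 0.02). The signs counted here and in the lists that follow are those of the 75th percentile scaling; with arrays scaled to their median probe, the median of each list was positive. The 10 that were too dim were Trpc2, Trpc7, Trpm2, Trpm5, Trpm8, Trpv1, Trpv3, Trpv5, Trpa1 and Mcoln3. Pkd2l1, a polycystin channel, had the smallest p: it read -3.19, -3.06 and -3.55 in knockout, against -1.90, -2.40 and -3.04 in wild type, a log2 difference of -0.82 (SE 0.30, adjusted p = 0.614, limma). The genotypes just failed to overlap for it. Of the 11 genes, 2 lay wholly lower in knockout and 1 wholly higher, where the genotypes did not overlap for 10.5% of all genes tested. Trpv6, a calcium-selective epithelial channel, was at -0.43 (SE 0.18, well above background on 1 knockout and 2 wild-type arrays) and Trpm1 at -0.77 (SE 0.34).

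Upstream of the channels, 15 of 16 genes of Gq receptors, phospholipase C and diacylglycerol handling were tested, 0 passed, and their median was -0.02, with 6 positive and 9 negative. Adra1a, an alpha-1 adrenergic receptor, read -2.14, -2.59 and -2.22 in knockout, against -2.03, -1.50 and -1.69 in wild type. Every knockout array lay below every wild-type array. The log2 difference was -0.58 (SE 0.20, adjusted p = 0.614, limma), with -0.12 on slide 1 and -0.81 on slide 2. Ednrb, an endothelin receptor, was at 0.37 (SE 0.28). The phospholipase gene Plce1 was at -0.14 (SE 0.13), again without overlap of the genotypes. In this list 3 genes lay wholly lower in knockout and 0 wholly higher, where the genotypes did not overlap for 10.5% of all genes tested.

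The list of store-operated entry and TRPC partners held 16 genes, all tested, with 11 positive, 5 negative, 0 past the threshold and a median of 0.03. Orai2, a pore subunit of store-operated entry, was at 0.81 (SE 0.53), the inositol trisphosphate receptor gene Itpr2 at 0.18 (SE 0.13) and the store sensor Stim1 at 0.30 (SE 0.24). For Orai2 the slides differed in sign (-0.87 on slide 1 and 1.65 on slide 2). Over the list, the positive genes numbered 7 on slide 1 (median -0.10) and 12 on slide 2 (median 0.24). The 5 other mechanically gated channels gave 3 tested genes, among them Piezo1 (0.04, SE 0.26), Tmem63a (-0.08, SE 0.15) and Tmem63b (-0.12, SE 0.19).

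Downstream, all 15 calcineurin and NFAT genes were tested and 0 passed, with 10 positive, 5 negative and a median of 0.02. The positive ones numbered 12 on slide 1 and 4 on slide 2. Nfatc4, an NFAT factor, was at 0.75 (SE 0.42), Rcan1, an inhibitor of calcineurin whose gene is itself a calcineurin target, at 0.49 (SE 0.40), and Mef2a at 0.15 (SE 0.15). The cGMP and PKG list, a pathway described as damping TRPC6, had 8 of 8 genes tested, 6 positive and 2 negative, with 0 past the threshold and a median of 0.11. The positive ones numbered 2 on slide 1 and 6 on slide 2. Pde5a, the phosphodiesterase that degrades cGMP, read 1.17, 1.22 and 1.91 in knockout, against 3.33, 2.85 and 1.66 in wild type. Wild-type replicate 3 lay below knockout replicate 3, so the genotypes overlapped, and the log2 difference was -1.18 (SE 0.44, adjusted p = 0.614, limma), with -2.16 on slide 1 and -0.69 on slide 2. Gucy1b1, a subunit of soluble guanylate cyclase, was at 0.30 (SE 0.28) and the receptor gene Npr2 at 0.11 (SE 0.15).

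**Figure D4:**
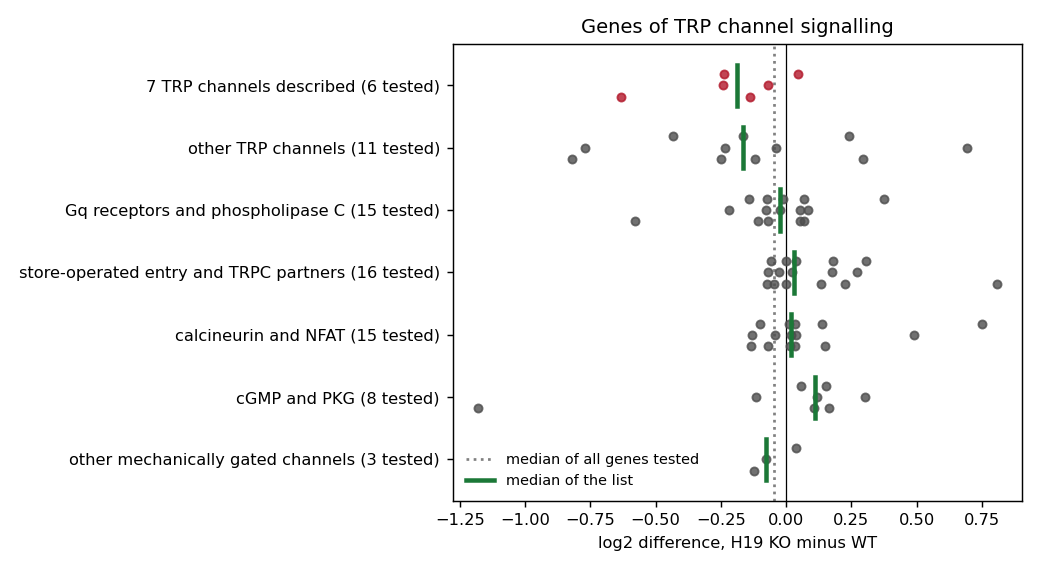
Log2 difference, H19 knockout minus wild type (x axis), of each tested gene (points) of the 7 channels described and of 6 lists of related genes, with the median of each list (green bar) and of all genes tested (dotted line, -0.05). The list medians lie between -0.19 and 0.11, and 0 of the genes shown passed an adjusted p of 0.05.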

How the data were processed

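Per the file headers, the scanner output of the 1-colour Agilent arrays came from Agilent's Feature Extraction software, version 10.7.3.1, also named in the submitters' processing notes, and holds for each spot an intensity after background subtraction and detrending, with no normalization across arrays. The authors' deposited value table, also an intensity, has a rank correlation of 1 with it and the same median (69.7) in every column; its columns share 1 set of quartiles, as quantile normalization leaves them, no source used here describes the step, and as an alternative it is close to the quantile normalization run here. Flags mark spots well above background, a score of 0 or 1 per the file headers.

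The genotype in the labels set each array's group. Intensities were taken as log2, usable spots of a probe averaged, and the array's 75th percentile over probes subtracted (637.8 to 928). Left out were control spots, outlier spots and 32 probes lacking a usable spot on some array. A probe was kept if 3 or more of the 6 arrays had it well above background (29990), with the brightest standing for its gene (21888 genes). Names came from a RefSeq table of GRCm38.p6, by accession for 26425 probes. Genotypes were compared as knockout minus wild type with limma's lmFit and eBayes (version 3.58.1 under R 4.3.3) and Benjamini-Hochberg adjustment over all genes; intervals are 95% intervals of that fit. With 3 arrays on each side, the smallest p of an exact permutation test is 0.10, so none was used. The procedure was tested on simulated data. The channels and gene lists were chosen with earlier results of these data known. Genes named beside the channels are H19, the up to 3 genes of each related list with the smallest p, and the 2 genes most like each channel, of which 1 is not reported here. Slides are those of the file headers.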

Additional observations from a re-analysis of the deposited data

How the results depend on the processing

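None of the 6 tested channels passed the threshold under any of the 11 alternatives or without any 1 array, and the lowest adjusted p was 0.121 (Trpc4 without wild-type replicate 3). Trpc6 could not be fitted with probes required on all 6 arrays, since it is not well above background on 2, and Trpc5 has no main value to compare. Of 101 alternative values of these 6 channels, 14 had the opposite sign. The difference kept its main value where only the filter, a block or the prior changed, or each probe was tested on its own. So did that of channels with 1 tested probe where probes were averaged. Such values do not test the sign. With quantile normalization Trpc1 was 0.022 and Trpc6 0.24; Trpc4 probe 2, not counted among the 101, was 0.14. With the authors' deposited values Trpc1 was 0.0074 and Trpc6 0.24. With each array scaled to its median probe, which moves the median of all genes to 0.37, Trpc1 was 0.35, Trpc6 0.18, Trpm4 0.28 and Trpv2 0.18. Leaving out 1 array at a time moved Trpc1 from -0.22 to 0.12, Trpc4 from -0.98 to -0.20, Trpc6 from -0.86 to 0.47, Trpm4 from -0.25 to -0.07, Trpm7 from -0.052 to 0.19 and Trpv2 from -0.47 to -0.02. The count of all genes called, 8, was 3 with quantile normalization or the authors' values, 119 when arrays were scaled to the median probe, 1 with no filter on dim probes or slide as a block, 14 when each probe was tested on its own, and 1 to 4 with 1 array left out. With the replicate number as a block the count was 1. Same-numbered arrays deviated from the mean of their genotype with r = -0.22, -0.05 and 0.04, and other pairs ran from -0.27 to 0.33. Deviations within groups of 3 arrays constrain each other, so these r cannot decide whether arrays were paired. The labels' numbers were not taken to pair them. The replicate block changed no call of a channel. The causes were not tested. The number of arrays and, for Trpc5, Trpc6 and Trpc4 probe 2, signals near background limit what could be detected. Trpc4 probe 1 passed on all 6 arrays but was dim. Its intensity was 205.5 in wild-type replicate 1 and ran from 82.1 to 129.8 on the other arrays. The dimmest probe counted as well above background read between 44.2 and 69.5, depending on the array.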
